A study of Mus musculus with 13 samples.

Results

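Slc5a7, St14, Gpr50, Ass1 and Tph2 are 5 mouse genes that were nearly silent or, for Tph2, low in the adipocyte RNA of chow-fed mice and well detected in that of mice fed a high-fat diet (HFD). They were taken by symbol from the deposited table of 11761 gene rows. Their transcripts there are uc008czy.1 (Slc5a7), uc009ori.1 (St14), uc009tke.2 (Gpr50), uc008jdu.1 (Ass1) and uc007haw.2 (Tph2). Each had a mean near 1 CPM (reads of a gene scaled to a common library size) or less over the 3 chow libraries and above 30 CPM over the 3 HFD libraries. The same 6 libraries chose them, so their levels are given here as a description, with no test.

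The animals were Adipoq-NuTRAP mice on the C57BL/6J background that received HFD or chow for 10 weeks, and RNA came from their epididymal white fat. HFD and chow mice alike carried the NuTRAP reporter, in which Cre under the adiponectin promoter turns on a GFP-tagged ribosomal protein. Ribosome-bound RNA was then pulled out of whole-fat homogenate with an anti-GFP antibody, a method called translating ribosome affinity purification that enriches RNA of the tagged cells and can carry over RNA of others. Each diet had 3 libraries; neither age nor the number of animals behind a library is stated in the labels, so any spread between libraries may be technical. The 5 H3K27ac and 2 PPARG chromatin samples of the series were not analysed here.

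The 5 genes belong to pathways that are best known outside fat. Slc5a7 encodes the high-affinity choline transporter of cholinergic nerve endings, which refills them with choline for acetylcholine synthesis. Tph2 encodes the tryptophan hydroxylase of neurons, the rate-limiting step of serotonin synthesis there, while its relative Tph1 serves cells outside the brain. Ass1 encodes argininosuccinate synthetase, which joins citrulline and aspartate in the urea cycle and in the recycling of arginine. St14 encodes matriptase, a serine protease anchored in the membrane of epithelial cells. Gpr50 encodes an orphan receptor of the melatonin receptor family that does not bind melatonin; in human cells it has been reported to pair with the MT1 receptor and with the type I receptor for TGF-beta.

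By size, HFD replicates 1, 2 and 3 stood at 33700000, 32000000 and 39400000 effective reads, and chow replicates 1, 2 and 3 at 23200000, 32500000 and 7420000. A level of 3 reads, taken as the floor, equalled 0.0889, 0.0939 and 0.0761 CPM in those HFD libraries and 0.129, 0.0924 and 0.404 CPM in those chow libraries. Chow replicate 3 was thus the least able to show a low level. All 14 adipocyte markers checked (Adipoq, Plin1, Cidec and others) were listed, with a summed level of 23128 to 25523 CPM in HFD libraries and 26391 to 40559 CPM in chow libraries. The highest chow sum was that of the shallow replicate 3, and chow replicate 1 had 29598 CPM. The sum mixes directions: in the fit described below 7 markers were called lower in HFD and 1, Lep, higher, and 6 were not called. Lep had 5497 ± 856 CPM in HFD and 1224 ± 231 CPM in chow (SD, n = 3 each). Between bulk samples, fewer cells of a type and less RNA per cell cannot be told apart.

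Slc5a7 had 54.2, 107 and 179.8 CPM in HFD replicates 1, 2 and 3, against 0.224, 0.255 and 0.412 CPM in chow replicates 1, 2 and 3. The chow values stood for 5, 8 and 3 reads. Every chow library therefore held some Slc5a7 reads, chow replicate 3 just at its floor, and the lowest HFD library was 132 times the highest chow library.

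Ass1 had 34.1, 59.3 and 69.1 CPM in HFD replicates 1, 2 and 3, against 0.310 and 0.255 CPM in chow replicates 1 and 2, which held 7 and 8 reads, and 0 reads in chow replicate 3. Tph2 had 33.4, 35.02 and 137 CPM in HFD replicates 1, 2 and 3, against 0.483, 1.34 and 1.36 CPM in chow replicates 1, 2 and 3. These chow levels of Tph2 rested on 11, 43 and 10 reads, above the floor in each library, so low rather than silent describes Tph2 in chow. The lowest HFD library of Tph2 was 24.6 times the highest chow library.

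St14 had 64.9, 52.7 and 56.1 CPM in HFD replicates 1, 2 and 3, against 0 reads in chow replicate 1 and 0.132 and 0.412 CPM in chow replicates 2 and 3, where 4 and 3 reads were counted. Gpr50 had 22.2, 21.1 and 74.0 CPM in HFD replicates 1, 2 and 3, against 0.0947 CPM in chow replicate 1, from 2 reads, and 0 reads in chow replicates 2 and 3. Gpr50 was thus at or under the floor in all 3 chow libraries. In each of the 5 genes the HFD libraries lay above all chow libraries, which the way the genes were chosen favours; 25.2% of the 11643 genes tested showed the same order and 25.0% its reverse.

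**Figure D1:**
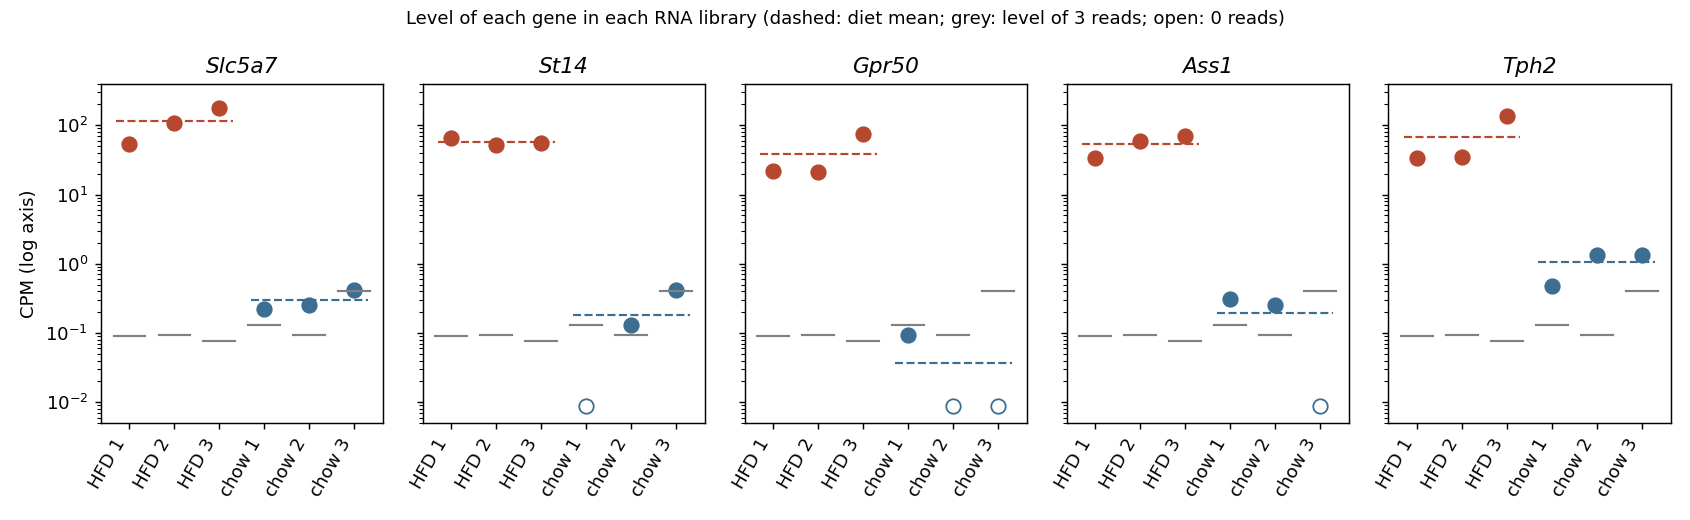
CPM of each gene on a log axis in the 3 HFD libraries (red) and the 3 chow libraries (blue), with dashed diet means, grey marks at the level of 3 reads and open circles for libraries with 0 reads. HFD levels lie between 21.1 and 179.8 CPM, and the chow levels of Slc5a7, St14, Gpr50 and Ass1 sit near or below the 3-read marks.

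The mean level was 114 ± 63.1 CPM in HFD and 0.297 ± 0.101 CPM in chow for Slc5a7 (SD, n = 3 each). It was 57.9 ± 6.29 CPM in HFD and 0.184 ± 0.207 CPM in chow for St14, and 39.1 ± 30.3 CPM in HFD and 0.0374 ± 0.0497 CPM in chow for Gpr50. It was 54.1 ± 18.1 CPM in HFD and 0.191 ± 0.160 CPM in chow for Ass1, and 68.5 ± 59.5 CPM in HFD and 1.06 ± 0.499 CPM in chow for Tph2. The HFD spread was thus small beside the mean for St14 and close to the mean itself for Gpr50 and Tph2.

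Pooled over the libraries of a diet, Slc5a7 had 12326 reads in HFD and 16 in chow, a ratio of 463 after scaling to library size (exact 95% interval 285 to 810). The ratio was 522 for St14 (253 to 1299), from 6083 reads in HFD and 7 in chow. For Ass1, 5764 HFD reads and 15 chow reads gave 231 (139.9 to 413). For Tph2, 7649 HFD reads and 64 chow reads gave 71.8 (56.2 to 93.3). Gpr50, with 4338 HFD reads and 2 chow reads, had a ratio of 1303 with an interval of 361 to 10764.5, so its size was hardly fixed by the chow reads. These intervals cover counting error only and not the spread between libraries, and reads copied during amplification are not independent molecules. With a pseudocount of 1 CPM the log2 differences, HFD minus chow, came to 6.31 for Slc5a7, 5.65 for St14, 5.48 for Ass1, 5.02 for Gpr50 and 4.78 for Tph2; with 0.25 CPM Gpr50 had 6.85 and Tph2 5.47.

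Besides the 5 genes, 5 others fell inside the same limits, read here as a mean of at most 1.5 CPM in chow and above 30 CPM in HFD, so that 10 listed genes (0.0850%) did. These were Wisp2, a secreted matricellular gene also called Ccn5 (80.9 ± 31.7 CPM in HFD and 0.574 ± 0.141 CPM in chow), the kinase gene Cdkl4 (45.6 ± 27.2 CPM in HFD and 0.619 ± 0.200 CPM in chow), the chemokine gene Ccl2 (38.6 ± 17.8 CPM in HFD and 0.699 ± 0.0170 CPM in chow), Ncan, which encodes the brain proteoglycan neurocan (33.6 ± 17.3 CPM in HFD and 1.19 ± 0.841 CPM in chow), and the macrophage elastase gene Mmp12 (32.6 ± 9.74 CPM in HFD and 0.150 ± 0.151 CPM in chow; SD, n = 3). Just outside the HFD limit stood Smtnl2, Plppr4 and Ddah1 at 28.1, 26.6 and 23.8 CPM in HFD. Just outside the chow limit stood Adam8, Ccl7 and Itgax at 1.66, 1.69 and 1.77 CPM in chow. Of 620 genes with at most 1.5 CPM in chow, 131 were also at or below 1.5 CPM in HFD and 47 exceeded 10 CPM there.

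**Figure D2:**
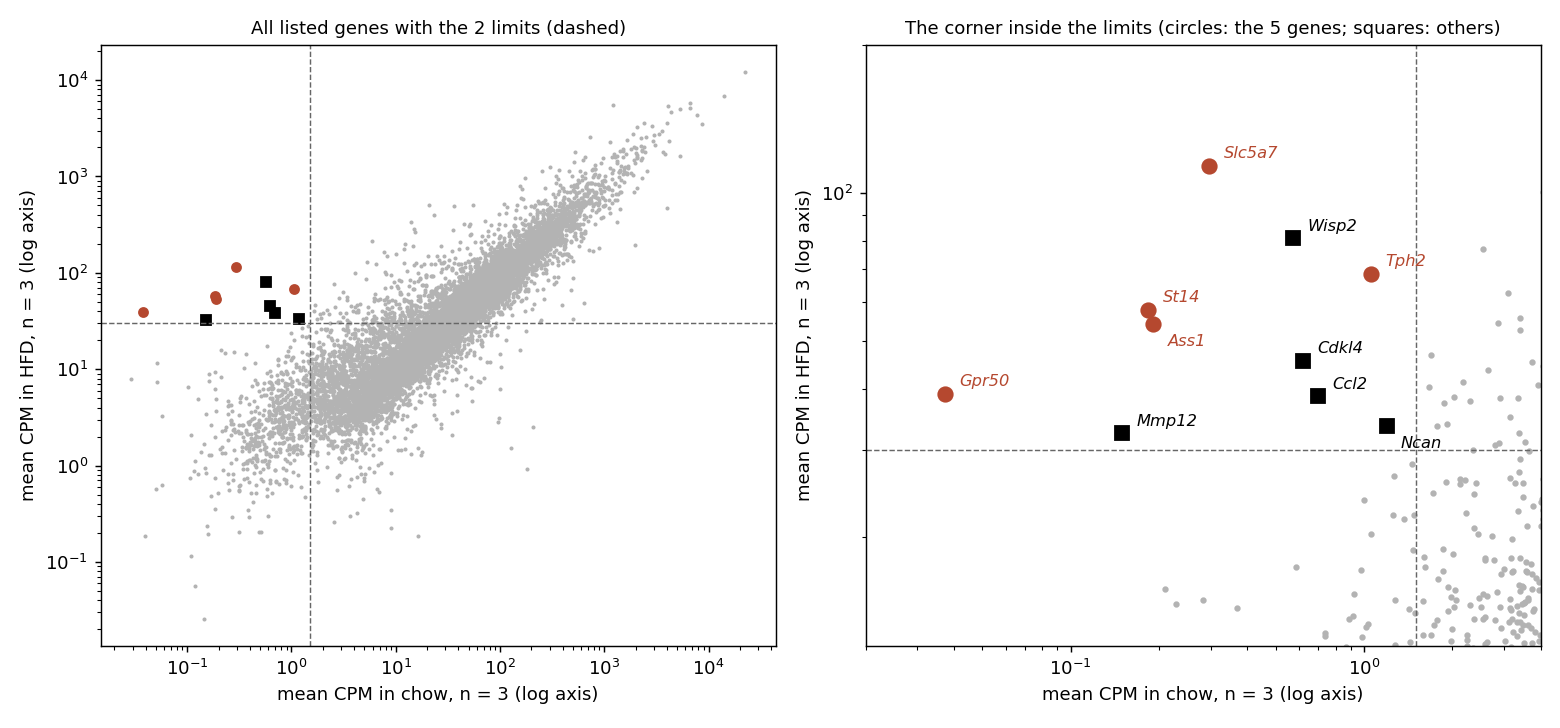
Mean CPM in HFD against mean CPM in chow (n = 3 each, log axes) for all listed genes, with the whole range on the left and the upper left corner enlarged on the right. The 5 genes (red circles) and 5 others (black squares) are the 10 genes left of 1.5 CPM in chow and above 30 CPM in HFD.

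The genes whose levels were most alike over the 6 libraries all lay among these 10. By the root mean square difference of log2(CPM + 1), the nearest gene was Wisp2 for Slc5a7 (0.42), Ass1 for St14 and St14 for Ass1 (0.47), and Cdkl4 for both Tph2 (0.53) and Gpr50 (0.61). The next places were held by Ass1, St14, Wisp2, Cdkl4, Mmp12 and Ncan. The measure follows the level in HFD and near absence in chow, which the choice of genes fixes, and carries no test.

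The promoters are shown because the 5 genes share a large difference between diets while lying on 5 chromosomes. RefSeq windows on GRCm38.p6, from 250 bases before to 50 after the annotated start, were available for 4 of the 5; St14 (chromosome 9, 31088590 to 31131811) was not in the table. They are Slc5a7 at chr17:54298985-54299284 (minus strand), Gpr50 at chrX:71663417-71663716 (plus strand), Ass1 at chr2:31470020-31470319 (plus strand) and Tph2 at chr10:115184973-115185272 (minus strand). The Slc5a7 window rests on a start a few bases inside the gene's outer end at 54299038, and its motif positions are counted from the window's start. Sequences run 5′ to 3′ along the gene. Capitals mark any of 6 short motifs, searched on both strands: TATAAA (the TATA box), GGGCGG (the GC box), AGGTCA (nuclear receptor half-site), CAGAC (SMAD-binding core), TGANTCA (AP-1) and TTGCNNAA (C/EBP).
Slc5a7: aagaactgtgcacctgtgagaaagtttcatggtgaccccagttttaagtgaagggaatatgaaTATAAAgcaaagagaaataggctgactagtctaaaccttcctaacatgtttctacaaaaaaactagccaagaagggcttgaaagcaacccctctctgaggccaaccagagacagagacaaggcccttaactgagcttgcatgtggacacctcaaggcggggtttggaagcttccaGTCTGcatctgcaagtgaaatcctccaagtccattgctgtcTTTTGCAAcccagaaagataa
Gpr50: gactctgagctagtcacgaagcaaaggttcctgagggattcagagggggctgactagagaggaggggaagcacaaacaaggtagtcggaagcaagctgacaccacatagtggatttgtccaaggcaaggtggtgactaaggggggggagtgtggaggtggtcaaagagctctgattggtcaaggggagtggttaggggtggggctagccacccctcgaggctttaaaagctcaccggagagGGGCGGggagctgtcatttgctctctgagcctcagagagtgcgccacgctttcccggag
Ass1: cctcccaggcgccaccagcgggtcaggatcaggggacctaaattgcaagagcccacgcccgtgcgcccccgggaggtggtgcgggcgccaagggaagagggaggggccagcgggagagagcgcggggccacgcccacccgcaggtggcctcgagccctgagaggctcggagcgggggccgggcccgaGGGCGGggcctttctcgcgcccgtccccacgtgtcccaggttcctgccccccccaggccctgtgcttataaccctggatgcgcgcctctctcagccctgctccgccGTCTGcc
Tph2: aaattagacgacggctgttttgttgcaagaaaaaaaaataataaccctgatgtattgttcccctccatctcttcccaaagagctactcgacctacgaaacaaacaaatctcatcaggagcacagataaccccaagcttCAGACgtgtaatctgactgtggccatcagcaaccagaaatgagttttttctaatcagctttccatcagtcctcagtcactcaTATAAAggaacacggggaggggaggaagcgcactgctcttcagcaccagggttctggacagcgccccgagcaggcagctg

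No motif was found in all 4 windows. Counting the start as position 1, TATAAA stood at -30 in Tph2 and at -187 in Slc5a7; 13.6% of all 32851 windows held one. GGGCGG stood at -9 in Gpr50 and at -63 in Ass1, against 35.7% of all windows. The CAGAC core appeared in Slc5a7 (-12), Ass1 (44) and Tph2 (-112), a motif present in 49.6% of windows, and TTGCNNAA in Slc5a7 alone (30; 10.8% of windows). AGGTCA (16.3% of windows) and TGANTCA (7.81%) were found in none of the 4 windows. These are matches of letters, not binding sites.

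Base composition differed widely between the 4 windows. Ass1 had 74.0% G and C and an observed over expected CpG ratio of 0.658, Gpr50 57.3% and 0.360, Tph2 47.3% and 0.542, and Slc5a7 44.7% and 0.0668. The medians over all windows were 52.7% and 0.384. The Slc5a7 window, with 1 CpG, had a higher ratio than 8.60% of all windows, and the Ass1 window, with 27, a higher one than 67.9%.

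Within the HFD group the 5 genes varied far more than most genes, except St14, which the way they were chosen favours. A mean above 30 CPM can be reached through 1 high library. The 5995 genes set beside them here were not also chosen for a low chow level. The highest HFD library exceeded the lowest 4.11 times for Tph2, 3.51 times for Gpr50, 3.32 times for Slc5a7 and 2.03 times for Ass1, but 1.23 times for St14. Over the 5995 listed genes above 30 CPM in HFD the median of this ratio was 1.21, and 99.9% of them had a lower ratio than Tph2, 99.7% than Gpr50, 99.6% than Slc5a7, 98.0% than Ass1 and 56.8% than St14. HFD replicate 3 was the highest HFD library for Slc5a7, Gpr50, Ass1 and Tph2, and HFD replicate 1 for St14; replicate 3 was highest for 28.9% of the 5995 genes. Among the 1051 of them called higher in HFD, replicate 3 was highest for 39.9% and the median ratio was 1.28. Other genes inside the same limits shared this order. Wisp2 had 54.6, 72.0 and 116 CPM in HFD replicates 1, 2 and 3, Cdkl4 20.7, 41.6 and 74.5 CPM, and Ncan 25.5, 21.9 and 53.4 CPM. Ccl2 was highest in HFD replicate 2 and Mmp12 in HFD replicate 1.

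One library therefore set much of the HFD mean of Tph2 and Gpr50. Without HFD replicate 3 the HFD mean was 34.2 CPM for Tph2, against 68.5 CPM with it, and 21.6 CPM for Gpr50, against 39.1 CPM with it, which is below the limit of 30 CPM. Slc5a7 stood at 80.5 CPM, Ass1 at 46.7 CPM and St14 at 58.8 CPM in HFD without that library. The chow means of these genes are 1.06 CPM (Tph2), 0.0374 CPM (Gpr50), 0.297 CPM (Slc5a7), 0.191 CPM (Ass1) and 0.184 CPM (St14). Leaving out the shallow chow replicate 3 lowered the chow mean of St14 to 0.0704 CPM, and leaving out chow replicate 1, which held all its chow reads, left Gpr50 with 0 reads in chow.

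Markers of mesothelium and other epithelium were also highest in HFD replicate 3. Of that list of 14 genes 9 were listed, and their sum was 56.1, 54.4 and 162.5 CPM in HFD replicates 1, 2 and 3, against 36.2, 35.99 and 23.7 CPM in chow replicates 1, 2 and 3. HFD replicate 3 stood at 1.79 times the HFD mean of that sum, beside 2.00 times for Tph2, 1.89 times for Gpr50, 1.58 times for Slc5a7, 1.28 times for Ass1 and 0.969 times for St14. The part of these cells in the levels of the 5 genes was not tested. The epithelial genes Cdh1, Epcam, Cldn4, Krt5 and Krt14 were not among the listed genes, and Msln, a mesothelial marker, had 31.3 ± 26.96 CPM in HFD and 8.62 ± 0.292 CPM in chow.

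Other marker lists differed in which HFD library was highest. Macrophage markers (15 of 16 listed) summed to 529 to 756 CPM in HFD libraries and 142 to 161 CPM in chow libraries. Of these, 14 were called higher in HFD and 1, Cd14, lower (2.28 ± 0.772 CPM in HFD and 14.2 ± 2.61 CPM in chow), beside 19.1% and 16.0% over all genes tested. The list also holds Ccl2 and Mmp12. Endothelial markers (10 of 10 listed) summed to 152 to 289 CPM in HFD and 30.4 to 79.5 CPM in chow. Both sums were highest in HFD replicate 1, at 1.22 and 1.44 times their HFD means. The lymphocyte, fibroblast, and Schwann and glial sums were highest there too. St14 was as well, but at only 1.12 times its HFD mean, and the part of any of these cells in its level was not tested. Smooth muscle and pericyte markers (7 of 8) summed to 1131 to 1442 CPM in HFD and 363 to 453 CPM in chow, and fibroblast markers (10 of 10) to 1409.7 to 2894 CPM in HFD and 1813 to 2754 CPM in chow. The fibroblast sum hides opposite moves, with 4 genes called higher, 1 lower and 5 not called. Col1a1 had 799 ± 224 CPM in HFD and 155 ± 40.1 CPM in chow, and Dcn 83.6 ± 25.5 CPM in HFD and 291 ± 45.4 CPM in chow. Col3a1, with 1299 ± 583 CPM in HFD and 1687 ± 526 CPM in chow, was not called. Of 16 markers of neurons and neuroendocrine cells 1 was listed, Stmn2, at 0.986, 0.511 and 1.74 CPM in HFD replicates 1, 2 and 3, against 1 and 0.255 CPM in chow replicates 1 and 2 and 0 reads in chow replicate 3. The 2 listed Schwann and glial markers, Mbp and S100b of 8, summed to 65.1 to 75.5 CPM in HFD and 43.0 to 54.0 CPM in chow. The 2 listed lymphocyte markers of 10 summed to 8.23 to 21.6 CPM in HFD and 0.555 to 2.21 CPM in chow, and the 6 listed neutrophil and mast cell markers of 9 to 16.7 to 31.3 CPM in HFD and 2.605 to 5.95 CPM in chow. The neutrophil and mast cell sum and Stmn2 were also highest in HFD replicate 3, and their part was not tested. In that sum S100a8 had 5.94, 15.2 and 25.8 CPM in HFD replicates 1, 2 and 3. Kit went the other way, with 10.3, 6.19 and 4.72 CPM. The other listed genes of the sum, Cpa3, Cma1, Mcpt4 and Tpsb2, had 0.4414 CPM or less in each HFD library. None of 12 epididymis and sperm genes was listed.

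**Figure D3:**
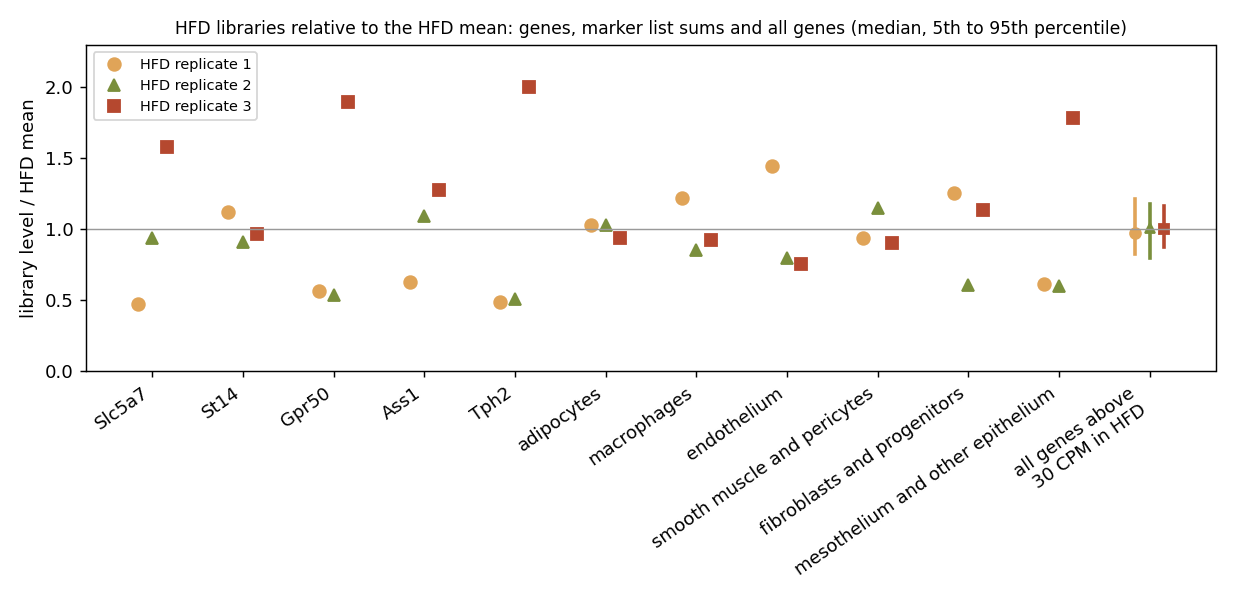
Level in each HFD library divided by the mean of the 3 HFD libraries, for the 5 genes, the summed marker lists of 6 cell types and, at the right, all 5995 genes above 30 CPM in HFD (median with the 5th to 95th percentile). Replicate 3 (squares) is highest for Slc5a7, Gpr50, Ass1, Tph2 and the mesothelium and epithelium list, and replicate 1 (circles) for St14, macrophages, endothelium and fibroblasts.

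The other genes of the 5 pathways were tested in the fit over all genes, in which limma (Benjamini-Hochberg adjusted p under 0.05) called 35.1% of 11643 genes, 19.1% higher and 16.0% lower in HFD. Apart from the 5 genes themselves, 79 rows of the 5 pathway lists were tested; 17 (21.5%) were higher and 27 (34.2%) lower in HFD, and 35 were not called. Without HFD replicate 2 the lower ones numbered 16. The lists were written with earlier results of these data known, so no list was tested as a whole. A gene that is not listed was not analysed here, and that does not show low expression: widely expressed genes such as Rtn4 and Cept1 are not listed either.

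Around Slc5a7, the step from choline to acetylcholine could not be followed: Chat, which makes acetylcholine, Slc18a3, which loads it into vesicles, and Ache, which breaks it down, were not among the listed genes. Bche, whose product butyrylcholinesterase can also split acetylcholine, fell in HFD (308 ± 15.2 CPM, against 531 ± 126 CPM in chow; -0.76, limma adjusted p 0.0082); it was chosen with its values known. Of 18 tested rows of choline and acetylcholine genes 3 were higher and 7 lower in HFD, beside 19.1% and 16.0% over all genes tested. Their median log2 fold change was 0.03, against -0.004 over all genes tested. Chdh, the mitochondrial dehydrogenase that oxidises choline toward betaine, had 9.65, 8 and 14.1 CPM in HFD replicates 1, 2 and 3, against 102, 109 and 94.4 CPM in chow replicates 1, 2 and 3. Its libraries did not overlap, and it fell by 3.18 on the log2 scale (SE 0.19, limma adjusted p 8.96e-06).

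The choline transporter-like genes moved in both directions. Slc44a2 was higher in HFD (55.9 ± 3.42 CPM, against 35.7 ± 2.49 CPM in chow; log2 fold change 0.63, limma adjusted p 0.00474). Slc44a3 was lower in HFD (34.9 ± 9.84 CPM, against 80.1 ± 31.4 CPM in chow; -1.13, limma adjusted p 0.0127). Slc44a1 was lower too (80.9 ± 7.91 CPM in HFD and 108 ± 9.41 CPM in chow; -0.41, limma adjusted p 0.0337), a call lost without HFD replicate 1 or 2 or chow replicate 1 or 2 (limma adjusted p 0.0694 to 0.112). Chka, the kinase that commits choline to phosphatidylcholine, had 20.2 ± 1.28 CPM in HFD and 12.96 ± 1.46 CPM in chow (0.61, limma adjusted p 0.0152), also lost without HFD replicate 1 or 2 (0.0510 and 0.0519). Gde1, a glycerophosphodiester phosphodiesterase gene, fell by 0.87 (limma adjusted p 0.000667). Chpt1, which completes phosphatidylcholine, is listed in 2 rows that moved apart: uc007grq.2 had 99.7 ± 26.3 CPM in HFD and 37.6 ± 4.78 CPM in chow (1.35, limma adjusted p 0.000934), and uc007grr.2 had 1223 ± 88.6 CPM in HFD and 1685 ± 113 CPM in chow (-0.46, limma adjusted p 0.0305), a call lost without any 1 of the libraries other than chow replicate 3 (0.0501 to 0.109). How the authors' counting divided reads between these rows is not stated.

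Around Ass1, the next enzyme of the cycle went the other way. Asl, which splits argininosuccinate into arginine and fumarate, had 19.97, 16.4 and 17.5 CPM in HFD replicates 1, 2 and 3, against 29.9, 30.9 and 30.7 CPM in chow replicates 1, 2 and 3. The diets did not overlap, and Asl fell by 0.73 on the log2 scale (SE 0.14, limma adjusted p 0.00382). Of 31 tested genes of arginine metabolism and the urea cycle, 8 were higher and 10 lower in HFD, beside 19.1% and 16.0% over all genes tested (median -0.11, against -0.004). Otc and Cps1, the liver enzymes that feed the urea cycle, and Arg1, a liver arginase also used by macrophages, were not among the listed genes.

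Ddah1, which breaks down methylated arginines that inhibit nitric oxide synthase, moved most in that list. It had 13.9, 20.3 and 37.3 CPM in HFD replicates 1, 2 and 3, against 0.785, 0.993 and 1.22 CPM in chow replicates 1, 2 and 3 (log2 fold change 3.53, SE 0.32, limma adjusted p 7.48e-05). Like Ass1 it was highest in HFD replicate 3. Its chow levels lay above the 3-read floor in each library, so low rather than near absent describes it there. Pycr1, of proline synthesis, was higher in HFD (6.25 ± 1.35 CPM, against 1.79 ± 0.461 CPM in chow; 1.37, limma adjusted p 0.00293), and Prodh, of proline breakdown, was lower (44.9 ± 4.05 CPM in HFD and 119 ± 16.0 CPM in chow; -1.39, limma adjusted p 0.000126). Asns, the asparagine synthetase gene, and Paox, a polyamine oxidase gene, fell by 1.10 (limma adjusted p 0.000407) and 0.93 (limma adjusted p 0.00244).

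Calls on the arginine importer gene Slc7a1 (20.2 ± 3.58 CPM in HFD and 12.8 ± 1.198 CPM in chow; limma adjusted p 0.0233) and on Odc1, the first step of polyamine synthesis (54.8 ± 4.63 CPM in HFD and 90.9 ± 27.1 CPM in chow; limma adjusted p 0.0220), did not survive each left-out library. Slc7a1 lost its call without HFD replicate 2 or 3 or chow replicate 1 or 2 (limma adjusted p 0.0537 to 0.121) and Odc1 without HFD replicate 1 or 2 (0.0700 and 0.0687). The inducible nitric oxide synthase gene Nos2, at 2.26 ± 1.39 CPM in HFD and 0.216 ± 0.183 CPM in chow (1.35, limma adjusted p 0.0203), lost its call without HFD replicate 1 or 2 or chow replicate 3 (0.0536 to 0.0651). Nos3, the endothelial form, had 44.3 ± 8.24 CPM in HFD and 31.6 ± 1.92 CPM in chow and was not called (limma adjusted p 0.0548; 0.0192 without HFD replicate 2).

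Around Tph2, the next step could not be followed: Ddc, which turns 5-hydroxytryptophan into serotonin, was not among the listed genes, nor were Tph1, the reuptake transporter gene Slc6a4 or any serotonin receptor gene of the list. Of 10 tested serotonin genes 2 were higher and 4 lower in HFD, beside 19.1% and 16.0% over all genes tested (median -0.24, against -0.004). Pcbd1, which regenerates the tetrahydrobiopterin cofactor of the tryptophan hydroxylases, had 26.4, 37.3 and 33.1 CPM in HFD replicates 1, 2 and 3, against 10.4, 8.40 and 9.06 CPM in chow replicates 1, 2 and 3 (log2 fold change 1.68, SE 0.18, limma adjusted p 0.000141). Pts, of cofactor synthesis, was lower in HFD (38.7 ± 7.16 CPM, against 69.2 ± 5.57 CPM in chow; -0.83, limma adjusted p 0.00334), and Gch1, the first step of that synthesis, had 1.498 ± 0.365 CPM in HFD and 0.552 ± 0.391 CPM in chow and was not called (limma adjusted p 0.113).

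The monoamine oxidases, which degrade serotonin, moved apart. Maoa had 90.5, 127 and 128 CPM in HFD replicates 1, 2 and 3, against 59.3, 61.4 and 64.0 CPM in chow replicates 1, 2 and 3 (log2 fold change 0.88, SE 0.15, limma adjusted p 0.00237). Maob had 61.0, 69.1 and 64.0 CPM in HFD replicates 1, 2 and 3, against 115, 189 and 139 CPM in chow replicates 1, 2 and 3 (-1.15, SE 0.18, limma adjusted p 0.00112). Aldh2, which oxidises the aldehyde they produce, fell by 1.33 (limma adjusted p 5.57e-05).

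Around St14, one of its inhibitors was higher in HFD. Spint2, a membrane-bound Kunitz inhibitor of matriptase, had 15.1, 15.1 and 20.7 CPM in HFD replicates 1, 2 and 3, against 3.71, 3.32 and 3.78 CPM in chow replicates 1, 2 and 3 (log2 fold change 1.95, SE 0.20, limma adjusted p 0.000116). Spint1, the related inhibitor, Prss8, the protease prostasin that works with matriptase in epithelia, and Epcam, an epithelial substrate, were not among the listed genes. Of 9 tested genes of the list 4 were higher and 2 lower in HFD, beside 19.1% and 16.0% over all genes tested (median 0.17, against -0.004). The list is broad and holds genes such as Timp1, so its count is not one of the matriptase system alone. The other higher genes were Timp1, a metalloproteinase inhibitor (5.37 ± 1.88 CPM in HFD and 0.540 ± 0.718 CPM in chow; 2.11, limma adjusted p 0.00243), Plaur, the urokinase receptor gene (3.72 ± 1.27 CPM in HFD and 0.611 ± 0.374 CPM in chow; 1.54, limma adjusted p 0.00480), and Plau, the urokinase gene, which matriptase can activate (22.9 ± 7.83 CPM in HFD and 7.25 ± 2.93 CPM in chow; 1.54, limma adjusted p 0.00426).

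Hepatocyte growth factor, another substrate of matriptase, and its receptor did not follow. Hgf had 21.9 ± 1.91 CPM in HFD and 26.7 ± 3.81 CPM in chow and was not called (limma adjusted p 0.213). Met, the receptor gene, had 67.2, 75.6 and 75.6 CPM in HFD replicates 1, 2 and 3, against 144, 146 and 134 CPM in chow replicates 1, 2 and 3 (-0.95, SE 0.12, limma adjusted p 0.000333). Mst1r, the receptor gene of a related factor, was lower too (-0.62, limma adjusted p 0.0288), a call lost without HFD replicate 2 or 3 or chow replicate 1 or 2 (0.0592 to 0.117).

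Around Gpr50, the melatonin receptor genes Mtnr1a and Mtnr1b were not among the listed genes. The list holds reported partners of GPR50 and genes of melatonin signalling. Of its 11 tested genes, 0 were higher and 4 lower in HFD, beside 19.1% and 16.0% over all genes tested (median -0.07, against -0.004). Tgfbr1, the type I TGF-beta receptor gene, had 103, 97.7 and 106 CPM in HFD replicates 1, 2 and 3, against 99.7, 106 and 94.4 CPM in chow replicates 1, 2 and 3, with overlapping diets (log2 fold change 0.03, SE 0.12, limma adjusted p 0.849). Nr3c1, the glucocorticoid receptor gene, had 316 ± 31.0 CPM in HFD and 550.01 ± 45.7 CPM in chow (-0.80, limma adjusted p 0.00170). Pde3b, the adipocyte phosphodiesterase that lowers cyclic AMP, fell by 1.03 (limma adjusted p 0.00103). Nrip1, a nuclear receptor corepressor gene, fell by 0.52 (limma adjusted p 0.0278) and lost its call without HFD replicate 1 or 2 or chow replicate 1 or 2 (0.0616 to 0.103).

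**Figure D4:**
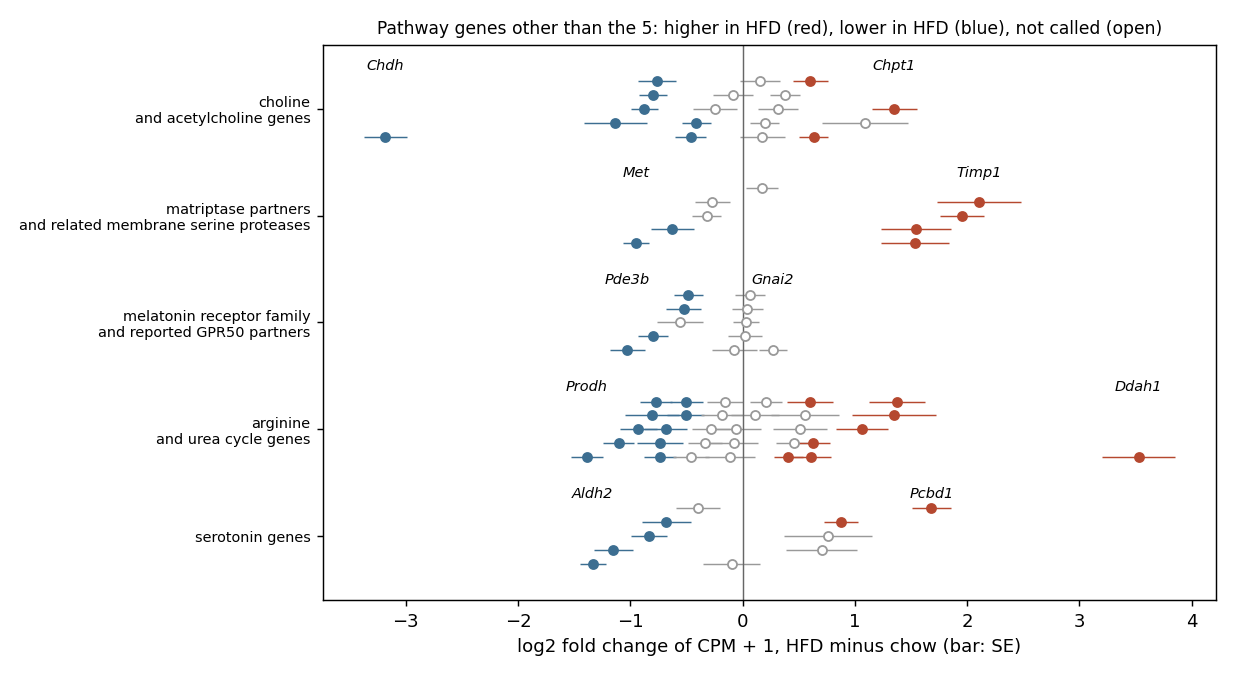
Log2 fold change, HFD minus chow, with its SE for the 79 tested rows of the 5 pathway lists, the 5 genes themselves left out; filled red points were called higher, filled blue points lower and open points not called, and the lowest and highest gene of each list is named. The changes run from -3.18 (Chdh) to 3.53 (Ddah1), and the lists hold calls on both sides of 0 except the one around Gpr50, whose 4 calls are all lower.

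The nearest 2 listed genes on each side of each of the 5 genes, picked by position alone on GRCm38.p6, gave 20 flanking genes, of which 3 were called higher and 6 lower in HFD, beside 19.1% higher and 16.0% lower over all genes tested. A change as large as that of the gene in the middle was seen at none of them, which the choice of the 5 genes for a large difference favours. Ass1 (chromosome 2, 31470270 to 31520670) had higher genes on one side: Hmcn2, the hemicentin-2 gene that lies 9532 bases from it, had 36.3, 16.1 and 45.3 CPM in HFD replicates 1, 2 and 3, against 4.82, 3.16 and 2.16 CPM in chow replicates 1, 2 and 3 (2.86, SE 0.37, limma adjusted p 0.000418). Ncs1, a calcium sensor gene beyond it, had 4.90 ± 0.920 CPM in HFD and 1.01 ± 0.445 CPM in chow (1.56, limma adjusted p 0.00245).

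Next to the other 4 genes, calls went in both directions, but the only higher one, on Trhde, was lost whichever library was left out. Pot1b, 1352152 bases from Slc5a7, had 12.2 ± 4.97 CPM in HFD and 6.46 ± 2.38 CPM in chow. It was not called (0.81, limma adjusted p 0.0715, but 0.0327 without chow replicate 1). Trhde, 276339 bases from Tph2, was called higher (39.2 ± 0.685 CPM in HFD and 29.9 ± 2.35 CPM in chow, log2 fold change 0.38, limma adjusted p 0.0459). Zbtb44, 12705 bases from St14, fell by 0.86 (limma adjusted p 0.00171), and Kat2b, 600869 bases from Slc5a7 (chromosome 17, 54273590 to 54299038), fell by 0.65 (limma adjusted p 0.00298). Tbc1d15, 12849 bases from Tph2 (chromosome 10, 115078641 to 115185022), differed by -0.40 (limma adjusted p 0.0364). None of the 4 genes around Gpr50 (chromosome X, 71663667 to 71669257) was called. Of the 9 calls, 5 were lost with a single library left out. Those on Fubp3, Tbc1d15 and Trhde were lost whichever of the 6 libraries was left out. Adamts15 lost its call without HFD replicate 2 or chow replicate 2 or 3. Atxn7l3b lost its call without HFD replicate 1, 2 or 3 or chow replicate 3. In the annotation 1 other gene, the pseudogene Gm16071, overlapped 1 of the 5 genes, St14, and the library kit, a tagmentation of double-stranded cDNA, does not mark strand.

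**Figure D5:**
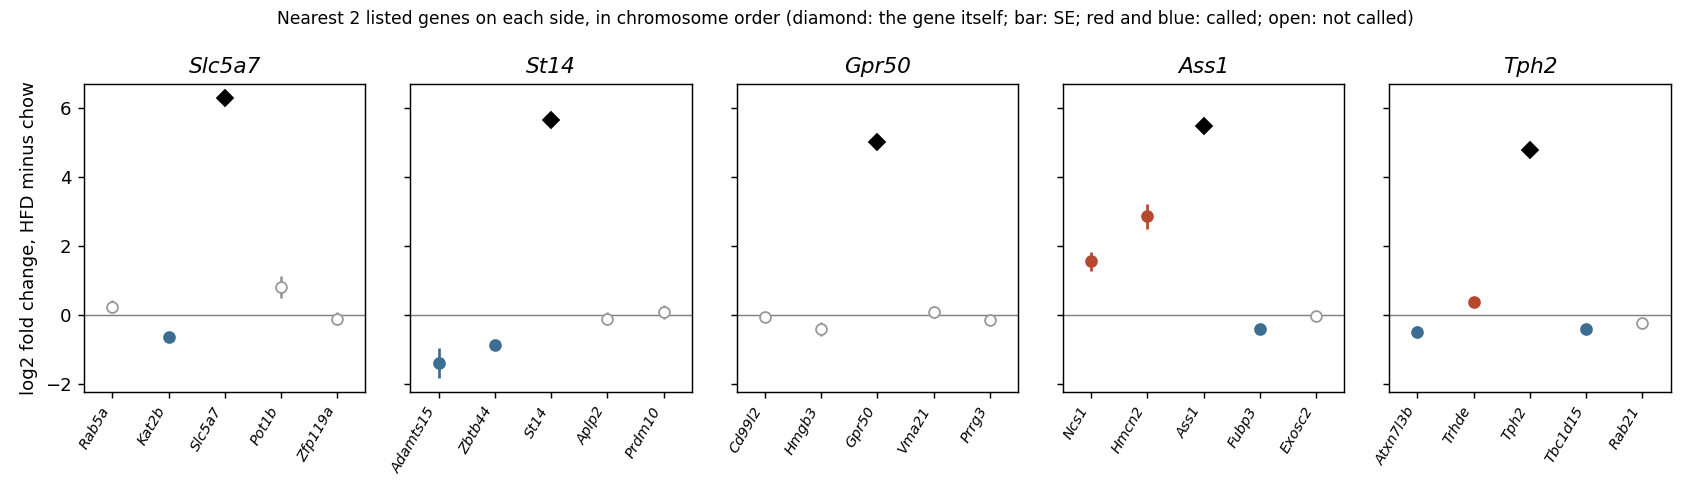
Log2 fold change, HFD minus chow, of each of the 5 genes (diamonds) and of the 2 nearest listed genes on each side in chromosome order (circles with SE; red called higher, blue called lower, open not called). The diamonds lie between 4.78 and 6.31 and the flanking genes between -1.40 and 2.86, with Hmcn2 beside Ass1 the highest.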

How the data were processed

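The deposited file holds log2 CPM per gene, made by the authors and rounded to 2 decimals, 1 column per RNA library; the log base and the unit were inferred from their spacing. Per the submitters' processing notes HISAT2, Picard, featureCounts and edgeR were among the tools and mm10 was the build; for tool versions, low-count filtering and prior count no source was at hand. Values were turned back into CPM as powers of 2, so a gene with 0 reads stands at 0.00867 CPM in means. Effective library sizes came from the spacing that a single read leaves between low values, and all values under 20 reads were whole within 0.1 read. Genes averaging 1 CPM or more over the 6 libraries (11643) were tested as log2(CPM + 1) with limma 3.58.1 in R 4.3.3 (trend, two-sided, Benjamini-Hochberg over all genes, threshold 0.05), checked on simulated data. Fold changes on that scale understate those of low genes. SD is over the 3 libraries of a diet, in CPM. SE is that of the difference between diets in the limma fit, on the log2(CPM + 1) scale, with variances drawn toward a trend over all genes. The 5 genes and all lists were chosen with earlier results of these data known. Genes named in the text are the 5, the up to 3 strongest calls per direction of each pathway list, a fixed set of partners, the genes most alike, those at the limits, abundant markers, and flanking genes, which were added later by position alone; some are not shown. Of the listed rows 10981 had a symbol in the GRCm38.p6 annotation. Alternatives changed the pseudocount, filter, scaling, weights, left-out library and replicate block. No exon lengths were used, so CPM of different genes are not compared.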

Additional observations from a re-analysis of the deposited data

How the results depend on the processing

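The 5 log2 differences kept their sign under all 14 alternatives, which the choice of the genes fixes, so the kept sign is no support. Their size depends on the pseudocount, since chow levels are near 0. With 0.25 CPM they were 7.55 (Slc5a7), 7.17 (St14), 6.85 (Gpr50) and 6.96 (Ass1). With the deposited log2 values they were 8.47, 9.53, 10.73 and 9.20 in that order and 5.83 for Tph2. With voom weights on the recovered reads they were 8.37, 9.01, 9.42, 8.19 and 5.85. Quantile normalization gave 5.41 for St14. Leaving out 1 library gave 5.90 to 6.75 for Slc5a7, 5.54 to 5.78 for St14, 4.45 to 5.33 for Gpr50, 5.28 to 5.78 for Ass1 and 4.13 to 5.13 for Tph2.

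Over all genes 2221 were higher and 1863 lower; equal totals, which shifted the median of all genes by about 0.10 on the log2 scale, gave 2513 and 1333, and left-out libraries 1688 to 2101 and 1162 (without HFD replicate 3) to 1740. Pathway genes higher ran from 13 to 16 and lower from 16 (without HFD replicate 2) to 25 with 1 library left out. Of 54 listed entries for named pathway and flanking genes, 13 lost a call and 2 gained one under some alternative, and 0 reversed; the cause was not tested.

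Same-numbered libraries of the 2 diets had deviations that correlated across genes by 0.433, 0.232 and 0.0862 for numbers 1, 2 and 3. Each HFD replicate went best with the chow replicate of its own number, while chow replicate 3 went best with HFD replicate 2 (0.150). The labels do not pair the libraries, and the main fit took none as pairs. Whether same-numbered libraries were handled together was not tested. With the replicate number as a block 2594 genes were higher and 2245 lower, 20 and 29 of them pathway genes; Nos3 and Pot1b were then called (limma adjusted p 0.0249 and 0.0116), and the 5 differences were the same by construction (6.31, 5.65, 5.02, 5.48 and 4.78).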
